A study of Mus musculus with 15 samples.

Results

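The expression of fatty acid oxidation enzymes was compared in mouse quadriceps over a set of 39 genes, chosen by symbol and split into mitochondrial and peroxisomal enzymes. Of these, 38 had values among the 12529 genes of the expression table, and all 38 reached the level needed for testing, a mean of 0.5 FPKM over the 15 libraries. FPKM is the number of fragments scaled to transcript length and to the number of assigned reads of the library. *Acot1*, a cytosolic acyl-CoA thioesterase, was not analysed here. Of the 38, 25 were classed as mitochondrial, 5 as peroxisomal and 8 as acting in the cytosol, at outer membranes or in more than 1 compartment.

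RNA-seq of polyA RNA was made from whole quadriceps of C57BL/6 mice in 3 groups of 5 libraries. Ex mice were wild-type animals given running wheels from 8 weeks of age for 4 weeks and harvested within hours of their last bout. mTg mice were sedentary carriers of the PGC1a transgene, in which the muscle creatine kinase promoter drives *Ppargc1a*, the gene of the transcriptional coactivator PGC1α. Control mice were sedentary and wild type, and the methods describe male mice. They name bought C57BL/6J animals for wheel running and wild-type littermates for the transgenic line, without saying which of these the shared Control group was. Both comparisons with Control share the same 5 Control libraries, and nothing in the labels says that each library came from a separate animal, so p-values measure the spread between these libraries, which may be in part technical.

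Fatty acids are activated to acyl-CoA by synthetases and, when long, enter mitochondria as carnitine esters made by CPT1 and turned back by CPT2. In the matrix each turn of the β-oxidation spiral runs through an acyl-CoA dehydrogenase, a hydratase, a hydroxyacyl-CoA dehydrogenase and a thiolase, and the electrons of the first step pass through the electron transfer flavoprotein (ETF) to the respiratory chain. Peroxisomes shorten very long and branched chains with their own enzymes after import by ABCD transporters. Oxidative muscle is known for high levels of the mitochondrial enzymes, and PGC1α is a known coactivator of nuclear receptors at many of their genes.

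The table held between 14098168 and 16876751 assigned reads per library in Ex, between 11475817 and 15381111 in mTg and between 15686582 and 16917490 in Control. *Ppargc1a* was at 4.87 to 7.34 FPKM in Ex, 50.1 to 56.8 FPKM in mTg and 5.06 to 12.5 FPKM in Control, and its mTg and Control ranges did not overlap (exact permutation test of the difference in means, both sides, p = 0.00794, which is the least that 5 against 5 can reach). The 8 skeletal muscle markers were *Ckm*, *Acta1*, *Myh4*, *Myh1*, *Tnnt3*, *Mylpf*, *Pvalb* and *Atp2a1*. They include the myosins of type IIb and IIx fibers, and neither *Myh2* nor *Myh7*, those of type IIa and I fibers. Their summed FPKM ranged from 92054 to 105407 in Ex, from 78861 to 92138 in mTg and from 106739 to 121228 in Control. Of these 8 genes 5 fell and 1 rose in Ex, and 7 fell and 1 rose in mTg. The summed level of 9 endothelial markers ranged from 153 to 194 FPKM in Ex, from 177 to 245 FPKM in mTg and from 115 to 148 FPKM in Control, with 4 of 9 higher in Ex and 7 of 9 higher in mTg. Of 10 macrophage markers 3 rose in mTg. Their sums were 91.95 to 159 FPKM in Ex, 113 to 190.1 FPKM in mTg and 90.7 to 131 FPKM in Control. Of 8 adipocyte markers 1 fell in Ex and 1 rose in mTg. Their sums were 421 to 540 FPKM in Ex, 461 to 776 FPKM in mTg and 328 to 578 FPKM in Control. Of all tested genes, 5.39% rose and 5.02% fell in Ex, and 22.3% rose and 23.1% fell in mTg. The numbers of macrophage and adipocyte markers that rose in mTg lie near the 22.3% of all genes, and 0 of either list fell there. Both lists are short. Of the 2 brown adipocyte markers *Ucp1* had no value, and *Cidea* was at 1.05 to 2.57 FPKM in Ex, 5.47 to 10.2 FPKM in mTg and 0.653 to 2.83 FPKM in Control. *Cidea* rose in mTg with no overlap (log2 fold change 2.02 ± 0.21, SE, adjusted p = 4.37e-06, limma), was lower in Ex than in mTg (-1.65 ± 0.15, adjusted p = 1.48e-06) and did not pass in Ex against Control (0.37 ± 0.21, adjusted p = 0.295). The part of these marker changes in the results below was not tested. In whole muscle, fewer cells of a type, less RNA per cell and, for the muscle markers, a change of fiber type cannot be told apart.

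Many fatty acid oxidation genes rose in both models, and most were lower in Ex than in mTg. In Ex against Control, 16 of 38 members rose and 0 fell (limma on log2(FPKM + 1), adjusted p under 0.05), where 5.39% of all 11674 tested genes rose and 5.02% fell. At an unadjusted p under 0.05, 19 members were higher and 0 lower, and limma's voom fit on reads recovered from the FPKM called the same numbers, 16 and 0. The median log2 fold change was 0.17 over the members and -0.0056 over all tested genes. In mTg against Control, 33 members rose and 3 fell, where 22.3% of all genes rose and 23.1% fell, with a median of 0.898 over the members and -0.021 over all genes. In Ex against mTg, 2 members were higher and 30 lower, where 20.7% of all genes were higher and 20.7% lower, with a median of -0.702 over the members and 0.016 over all genes. With the values rescaled to the same sum per library (TPM), the split of all called genes in Ex against Control moved to 1225 higher and 208 lower, against 629 and 586, and the member counts to 22 higher and 0 lower. In Ex against mTg that scaling gave 3038 genes higher and 1898 lower, against 2414 and 2413, and 3 members higher and 29 lower. Below, a value given in parentheses or with an adjusted p is a log2 fold change on the FPKM + 1 scale ± its SE, in Ex or mTg against Control, and a mean FPKM is given ± SD (n = 5 each).

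**Figure D1:**
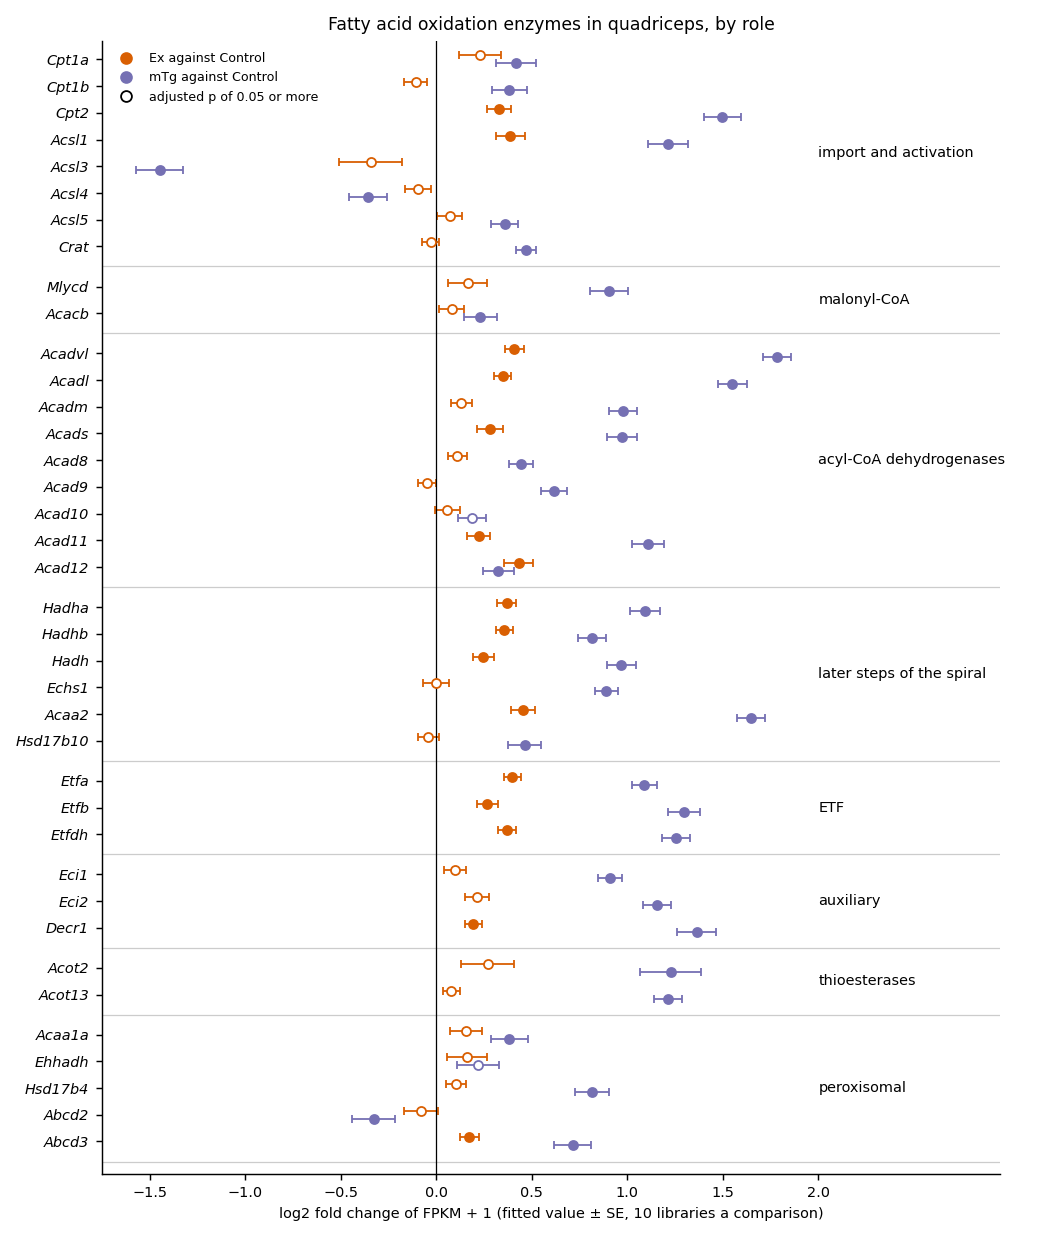
Log2 fold change of each of the 38 members (points, fitted value on FPKM + 1) with its standard error (bars) in Ex against Control and mTg against Control, grouped by role; open points did not pass an adjusted p of 0.05. The Ex points lie between -0.34 and 0.45, while the mTg points reach from -1.45 for Acsl3 to 1.78 for Acadvl.

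The 38 members together held 0.663% ± 0.026 of the summed FPKM in Ex, 1.18% ± 0.081 in mTg and 0.523% ± 0.016 in Control (SD, n = 5 each), and the 3 ranges, 0.646 to 0.7096% in Ex, 1.09 to 1.303% in mTg and 0.502 to 0.537% in Control, did not overlap. Levels per transcript length spanned a wide range. *Acadvl* was highest with a mean of 353 FPKM over the 15 libraries, followed by *Acadl* with 281 FPKM and *Etfb* with 274 FPKM, while *Acad10* and *Cpt1b* were lowest with 1.66 and 2.34 FPKM.

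A window of 250 bases before to 50 bases after the start site was given for 31 of the 39 members (RefSeq, GRCm38.p6). The estrogen-related receptor element TCAAGGTCA was searched on both strands and found in 0 of these 31 members and in 0.466% of all 27025 genes with a window. The nuclear receptor hexamer AGGTCA, which lies within that element and within the direct repeat AGGTCANAGGTCA, was found in 5 members (16.1%, against 18.1% of all genes). The direct repeat itself was found in 0 members and in 0.048% of all genes. At the shares of the element and the direct repeat over all genes, a count of 0 of 31 carries no information on the members. The median GC content of the windows was 60.7% over the members, with a range of 50.7 to 77%, and 52.8% over all genes. The 27025 genes were not limited to those tested here, and the part of expression in this difference was not tested.

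The 5 hexamers lay in *Acadvl* (bases -87 to -82 from the start site), *Echs1* (-83 to -78), *Acadm* (-249 to -244), *Cpt1a* (-94 to -89) and *Acacb* (43 to 48). The windows of *Acadvl*, with the largest rise of the set in mTg, and of *Echs1* and *Acadm*, which did not pass in Ex, are shown with the hexamer in capitals, read 5′ to 3′ along the gene's own strand. In *Acadm* the site is on the opposite strand and reads TGACCT.
Acadvl (chr11:70015379-70015678, minus strand): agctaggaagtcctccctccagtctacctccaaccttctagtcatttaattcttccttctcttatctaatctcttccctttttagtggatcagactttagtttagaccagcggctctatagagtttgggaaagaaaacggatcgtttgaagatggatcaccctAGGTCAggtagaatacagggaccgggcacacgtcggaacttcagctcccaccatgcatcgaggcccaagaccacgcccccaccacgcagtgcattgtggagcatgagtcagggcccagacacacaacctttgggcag
Echs1 (chr7:140116372-140116671, minus strand): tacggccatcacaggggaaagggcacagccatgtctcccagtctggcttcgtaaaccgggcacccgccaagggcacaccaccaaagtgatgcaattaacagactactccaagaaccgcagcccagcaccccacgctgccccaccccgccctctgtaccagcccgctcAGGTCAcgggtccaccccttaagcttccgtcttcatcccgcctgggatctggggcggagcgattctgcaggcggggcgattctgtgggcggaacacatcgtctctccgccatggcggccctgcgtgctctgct
Acadm (chr3:153944594-153944893, minus strand): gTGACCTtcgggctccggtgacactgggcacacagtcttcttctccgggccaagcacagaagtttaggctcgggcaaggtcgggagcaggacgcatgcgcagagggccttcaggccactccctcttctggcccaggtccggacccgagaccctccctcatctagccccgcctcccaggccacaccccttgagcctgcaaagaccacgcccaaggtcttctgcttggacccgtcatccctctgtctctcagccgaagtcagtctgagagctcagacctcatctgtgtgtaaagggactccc

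*Hadha* and *Hadhb*, the genes of both subunits of the mitochondrial trifunctional protein, stand head to head on chromosome 5, with RefSeq start sites 273 bases apart on opposite strands. Their windows share 228 bases, shown in capitals in the window of *Hadhb*. The window of *Acsl3*, which fell most in mTg, held none of the motifs and is shown beside it in lower case.
Hadhb (chr5:30155003-30155302, plus strand): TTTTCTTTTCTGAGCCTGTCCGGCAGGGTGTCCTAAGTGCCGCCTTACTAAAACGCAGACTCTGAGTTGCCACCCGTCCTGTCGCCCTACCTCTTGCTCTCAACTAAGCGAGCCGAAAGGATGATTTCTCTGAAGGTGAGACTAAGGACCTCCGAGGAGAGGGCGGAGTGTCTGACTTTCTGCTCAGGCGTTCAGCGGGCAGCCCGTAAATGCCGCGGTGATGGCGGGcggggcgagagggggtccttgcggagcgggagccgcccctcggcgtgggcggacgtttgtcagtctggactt
Acsl3 (chr1:78657575-78657874, plus strand): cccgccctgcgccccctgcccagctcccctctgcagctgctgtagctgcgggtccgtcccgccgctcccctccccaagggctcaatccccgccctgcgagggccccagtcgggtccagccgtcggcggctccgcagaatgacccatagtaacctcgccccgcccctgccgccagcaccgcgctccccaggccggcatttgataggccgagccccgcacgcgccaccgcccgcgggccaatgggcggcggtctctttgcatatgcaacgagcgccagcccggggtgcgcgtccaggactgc

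Of the 8 genes of activation and import, 2 rose in Ex and 0 fell, and 6 rose and 2 fell in mTg (limma). In Ex 0 of them were lower at an unadjusted p under 0.05, and 0 in limma's voom fit. *Acsl1*, the main long-chain acyl-CoA synthetase of muscle, had 138, 136, 143, 138 and 148 FPKM in Ex, 267, 303, 225, 214 and 249 FPKM in mTg, and 115, 108, 96.2, 93.6 and 126 FPKM in Control. Every Ex library was above every Control library, and the mTg libraries stood above both groups (log2 fold change 0.39 ± 0.075, adjusted p = 0.00765 in Ex and 1.21 ± 0.11, adjusted p = 8.75e-07 in mTg, limma). *Acsl3*, a synthetase of the endoplasmic reticulum and lipid droplets, had 8.08, 8.89, 15.8, 10.4 and 11.2 FPKM in Ex, 3.96, 5.57, 4.11, 4.47 and 4.08 FPKM in mTg, and 13.9, 11.1, 12.1, 13.9 and 18.8 FPKM in Control. The mTg libraries were all below the other groups while the Ex and Control ranges overlapped, and the log2 fold change was -1.45 ± 0.12, adjusted p = 7.53e-07 in mTg and -0.34 ± 0.16, adjusted p = 0.204 in Ex. *Acsl4*, a synthetase that prefers arachidonic acid, averaged 7.199 ± 0.639 FPKM in Ex, 5.87 ± 1.11 in mTg and 7.74 ± 0.634 in Control, a fall by 0.36 ± 0.10 on the log2 scale in mTg (SE, adjusted p = 0.00978) with ranges that overlapped. *Acsl5* averaged 3.44 ± 0.199 FPKM in Ex, 4.42 ± 0.268 in mTg and 3.23 ± 0.327 in Control and rose in mTg (0.36 ± 0.071, adjusted p = 0.00115), with 0.070 ± 0.064, adjusted p = 0.53 in Ex.

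*Acsl6*, a long-chain synthetase that is not a member, averaged 7.92 ± 0.442 FPKM in Ex, 15.1 ± 0.923 in mTg and 9.16 ± 0.562 in Control. It is left out of the sum below. The 4 synthetase genes of the set made up different shares of their own sum. *Acsl1* held 86.8% ± 1.64 of it in Ex, 94.5% ± 0.387 in mTg and 81.2% ± 1.27 in Control (SD, n = 5 each). *Acsl3* held 6.67% ± 1.58 in Ex, 1.67% ± 0.21 in mTg and 10.5% ± 1.503 in Control. The *Acsl1* shares of the 3 groups did not overlap, while the *Acsl3* shares of Ex and Control did (5.15 to 9.29% in Ex, 8.41 to 12.1% in Control). *Acsl3* was also among the members with the widest spread between libraries, with a coefficient of variation of 27.8% in Ex, 14.9% in mTg and 21.3% in Control.

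**Figure D2:**
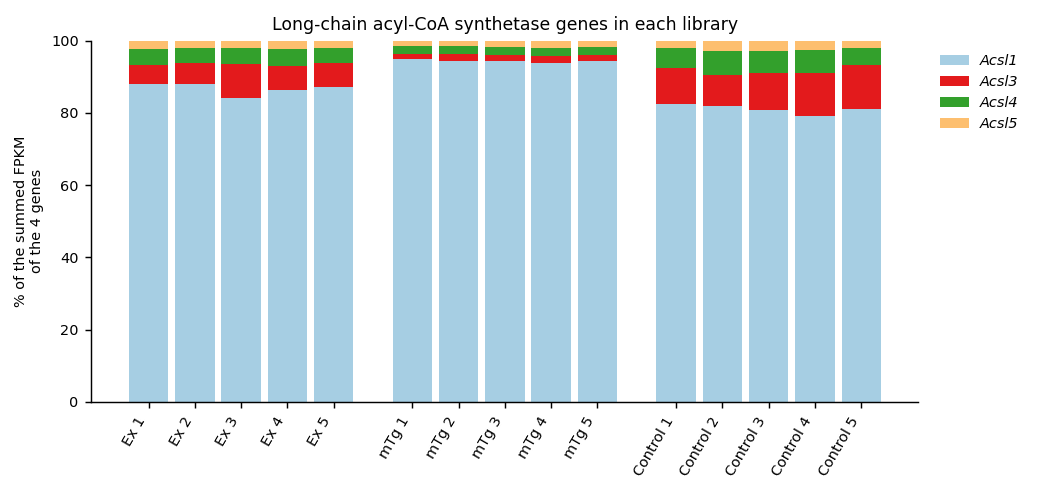
Share of each of 4 long-chain acyl-CoA synthetase genes in their summed FPKM (stacked bars, per cent), 1 bar per library. Acsl1 holds 84.1 to 88.1% in the Ex libraries, 93.9 to 94.98% in the mTg libraries and 79.2 to 82.5% in the Control libraries.

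The 2 isoforms of CPT1, the step that malonyl-CoA inhibits, were both low. *Cpt1a*, known as the liver isoform, had 3.299, 4.56, 4.24, 4.55 and 3.899 FPKM in Ex, 5.16, 5.34, 4.34, 4.89 and 4.34 FPKM in mTg, and 3.36, 2.87, 4.66, 2.87 and 3.18 FPKM in Control. It rose in mTg (0.42 ± 0.104, adjusted p = 0.0052) although the highest Control library, replicate 3, lay within the mTg range, and it did not pass in Ex (0.23 ± 0.11, adjusted p = 0.204), where it passed without Control replicate 3 (adjusted p = 0.0453, from 0.0453 to 0.363 over its 17 alternatives). *Cpt1b*, known as the muscle isoform, had 1.87, 1.77, 1.79, 1.98 and 1.97 FPKM in Ex, 3.35, 3.42, 2.52, 2.53 and 3.48 FPKM in mTg, and 1.97, 1.95, 2.46, 2.07 and 2.04 FPKM in Control. All mTg libraries were above all Control libraries (0.38 ± 0.090, adjusted p = 0.00352), and Ex and Control overlapped (-0.11 ± 0.060, adjusted p = 0.283). The *Cpt1b* values rest on 73 to 145 reads per library, and 81.4% of its 3372 exonic bases in the GENCODE vM21 annotation lie on the same strand in the gene *Gm44502*, which had no values. The sources used here do not give how reads that fit more than 1 gene were counted, so the level of *Cpt1b*, below that of *Cpt1a* in this table, is uncertain.

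*Cpt2*, which turns acylcarnitines back to acyl-CoA inside mitochondria, had 55.1, 48.4, 47.7, 43.9 and 48.2 FPKM in Ex, 121, 136, 95.9, 93.8 and 111 FPKM in mTg, and 38.8, 39.7, 37.8, 34.99 and 41.5 FPKM in Control. The 3 groups did not overlap, and *Cpt2* rose in Ex (0.33 ± 0.063, adjusted p = 0.00751) and in mTg (1.498 ± 0.097, adjusted p = 6.89e-08). *Crat*, which makes acetylcarnitine from surplus acetyl-CoA, averaged 159 ± 8.13 FPKM in Ex, 225 ± 9.21 in mTg and 162 ± 2.06 in Control, higher in mTg (0.47 ± 0.053, adjusted p = 9.64e-06) and with a log2 fold change of -0.029 ± 0.044, adjusted p = 0.718 in Ex. Both genes of malonyl-CoA metabolism rose in mTg. *Mlycd*, which breaks malonyl-CoA down, averaged 47.7 ± 6.92 FPKM in Ex, 80.2 ± 9.62 in mTg and 42.4 ± 5.32 in Control (0.904 ± 0.099, adjusted p = 7.35e-06 in mTg, 0.16 ± 0.103, adjusted p = 0.339 in Ex), and *Acacb*, which makes it at the mitochondrial outer membrane, averaged 62.95 ± 5.099 FPKM in Ex, 70.2 ± 8.36 in mTg and 59.5 ± 4.79 in Control (0.23 ± 0.085, adjusted p = 0.041 in mTg, 0.081 ± 0.067, adjusted p = 0.484 in Ex). The *Acacb* call in mTg was lost without any 1 of mTg replicates 1, 2 or 5 or of Control replicates 1, 2, 3 or 4 (adjusted p of 0.0579 to 0.0937, from 0.016 to 0.0937 over its 17 alternatives).

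Of the 9 acyl-CoA dehydrogenases, 5 rose in Ex and 0 fell, and 8 rose and 0 fell in mTg. At an unadjusted p under 0.05, 7 were higher in Ex and 9 in mTg, with 0 lower in either. *Acadvl*, the very-long-chain enzyme of the inner membrane, had 255, 253, 233, 239 and 235 FPKM in Ex, 736, 627, 604, 603 and 594 FPKM in mTg, and 184, 169.6, 185, 179.6 and 196 FPKM in Control. The groups did not overlap (0.41 ± 0.049, adjusted p = 0.000474 in Ex, 1.78 ± 0.072, adjusted p = 2.24e-09 in mTg), and mTg replicate 1 stood above the other mTg libraries. Of the exonic bases of *Acadvl*, 42.9% lie opposite *Dvl2*, and the sources used here do not give whether the counting used strand. *Acadl*, the long-chain enzyme, had 202, 201, 201, 211 and 213 FPKM in Ex, 497, 526, 476, 395 and 487 FPKM in mTg, and 161, 151, 166, 160.3 and 169 FPKM in Control. It rose in both (0.35 ± 0.043, adjusted p = 0.000615 in Ex, 1.55 ± 0.076, adjusted p = 6.78e-09 in mTg), again with no overlap between any 2 groups.

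The remaining dehydrogenases differed in size of response. *Acadm*, the medium-chain enzyme, averaged 176 ± 11.3 FPKM in Ex, 318 ± 29.7 in mTg and 161 ± 8.09 in Control (0.13 ± 0.054, adjusted p = 0.146 in Ex, 0.98 ± 0.073, adjusted p = 2.24e-07 in mTg), and the short-chain enzyme *Acads* averaged 64.6 ± 4.41 FPKM in Ex, 105 ± 8.51 in mTg and 53.1 ± 5.05 in Control (0.28 ± 0.068, adjusted p = 0.0227 in Ex, 0.97 ± 0.078, adjusted p = 4.31e-07 in mTg). The *Acads* call in Ex was lost without any 1 of Ex replicates 1 or 2 or Control replicates 1, 3 or 4 (adjusted p of 0.0503 to 0.0565, from 0.00198 to 0.0565 over its 17 alternatives). *Acad11*, an enzyme of long and very long chains, averaged 30.9 ± 2.38 FPKM in Ex, 58.2 ± 7.29 in mTg and 26.4 ± 1.78 in Control (0.22 ± 0.062, adjusted p = 0.0419 in Ex, 1.11 ± 0.085, adjusted p = 2.95e-07 in mTg), and its Ex call was lost in 8 of the 10 fits that left out 1 library (adjusted p of 0.0577 to 0.103), all but those without Ex replicate 4 or Control replicate 1, and with all 15 libraries in 1 fit (adjusted p = 0.106, from 0.014 to 0.106 over its 17 alternatives). *Acad8*, an enzyme of valine breakdown, and *Acad9*, also an assembly factor of complex I, rose in mTg (0.45 ± 0.062, adjusted p = 7.14e-05 and 0.61 ± 0.068, adjusted p = 8.29e-06), with 0.11 ± 0.048, adjusted p = 0.163 and -0.047 ± 0.046, adjusted p = 0.552 in Ex. *Acad10* averaged 1.61 ± 0.132 FPKM in Ex, 1.86 ± 0.192 in mTg and 1.51 ± 0.166 in Control and did not pass in mTg (0.19 ± 0.073, adjusted p = 0.0516), where it passed without mTg replicate 3 or Control replicate 3 (adjusted p of 0.0208 and 0.038) and under 4 other settings (from 0.0208 to 0.112 over its 17 alternatives).

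*Acad12*, a further member of the family, had its highest mean in Ex. It had 17.5, 14.3, 13.6, 13.5 and 13.4 FPKM in Ex, 12.1, 15.03, 12.9, 14.8 and 11.97 FPKM in mTg, and 9.93, 9.41, 10.7, 10.8 and 11.4 FPKM in Control. Both Ex and mTg libraries were above every Control library (0.43 ± 0.076, adjusted p = 0.00478 in Ex, 0.32 ± 0.080, adjusted p = 0.00498 in mTg), the Ex and mTg ranges overlapped, and Ex against mTg gave 0.11 ± 0.090, adjusted p = 0.366. It was the only 1 of the 25 mitochondrial members with a positive value in Ex against mTg, and that value did not pass. *Acad12* shares 10.7% of its 75-base windows with its neighbour *Acad10*, so reads of the pair may be split between them.

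Of the 6 genes of the later mitochondrial steps, 4 rose in Ex and 6 in mTg, and 0 fell (0 lower also at an unadjusted p under 0.05 and in the voom fit). *Acaa2*, the mitochondrial 3-ketoacyl-CoA thiolase, had 167, 165, 145, 136 and 146 FPKM in Ex, 408, 357, 323, 332 and 324 FPKM in mTg, and 115, 103, 114, 108 and 112 FPKM in Control. It had the largest fold change of the 38 in Ex (0.45 ± 0.063, adjusted p = 0.00121) and the second largest in mTg (1.65 ± 0.073, adjusted p = 3.36e-09), with no overlap between groups. *Hadha* averaged 165 ± 9.05 FPKM in Ex, 275 ± 30.1 in mTg and 128 ± 6.298 in Control (0.37 ± 0.051, adjusted p = 0.00123 in Ex, 1.09 ± 0.078, adjusted p = 1.47e-07 in mTg), and its partner *Hadhb* averaged 141 ± 5.48 FPKM in Ex, 194 ± 19.3 in mTg and 109.7 ± 4.56 in Control (0.36 ± 0.045, adjusted p = 0.000657 in Ex, 0.82 ± 0.072, adjusted p = 9.98e-07 in mTg). The ratio of *Hadha* to *Hadhb* was 1.17 ± 0.03 in Ex, 1.42 ± 0.18 in mTg and 1.17 ± 0.05 in Control (SD, n = 5 each), from 1.12 to 1.196 in Ex, from 1.29 to 1.74 in mTg and from 1.11 to 1.23 in Control. *Hadhb* shares 16.7% of its 75-base windows with other genes, nearly all with *Gm13910*.

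*Hadh*, the medium- and short-chain hydroxyacyl-CoA dehydrogenase, averaged 129 ± 9.28 FPKM in Ex, 214 ± 25.5 in mTg and 108 ± 3.79 in Control and rose in both (0.25 ± 0.054, adjusted p = 0.0145 in Ex, 0.97 ± 0.076, adjusted p = 3.67e-07 in mTg). *Echs1*, the short-chain enoyl-CoA hydratase, averaged 86.7 ± 7.13 FPKM in Ex, 161 ± 6.49 in mTg and 86.7 ± 5.85 in Control, with -0.0013 ± 0.066, adjusted p = 0.994 in Ex and 0.89 ± 0.062, adjusted p = 1.23e-07 in mTg. *Hsd17b10*, a dehydrogenase of short chains and of isoleucine breakdown, averaged 47.2 ± 2.86 FPKM in Ex, 67.7 ± 8.56 in mTg and 48.6 ± 3.16 in Control, with -0.041 ± 0.057, adjusted p = 0.692 in Ex and 0.46 ± 0.086, adjusted p = 0.000685 in mTg. Of the 6 later steps, these were the pair that did not pass in Ex.

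The 3 genes that carry electrons from the dehydrogenases to ubiquinone rose in both models. *Etfa*, the α subunit of ETF, had 195, 177, 179, 177 and 183 FPKM in Ex, 308, 329, 287, 264 and 288 FPKM in mTg, and 138, 134, 139, 145 and 135 FPKM in Control. It had the smallest adjusted p of the 38 in Ex (0.398 ± 0.043, adjusted p = 0.000263), and 1.09 ± 0.066, adjusted p = 4.13e-08 in mTg, with 3 separate ranges. *Etfb*, the β subunit, had 229.5, 219, 199.6, 198 and 213 FPKM in Ex, 535, 419, 418, 403 and 401 FPKM in mTg, and 177, 163, 178, 189 and 172 FPKM in Control. It was also separate between groups (0.27 ± 0.055, adjusted p = 0.0106 in Ex, 1.295 ± 0.082, adjusted p = 6e-08 in mTg), with mTg replicate 1 above the other mTg libraries, and 53.01% of its 1164 exonic bases are shared on the same strand with *Gm45233*, which had no values. *Etfdh*, the ETF-ubiquinone oxidoreductase of the inner membrane, had 109, 111, 111, 106 and 112 FPKM in Ex, 198, 224, 197, 179.6 and 222 FPKM in mTg, and 92.4, 86.1, 86.1, 79.4 and 80.6 FPKM in Control. It rose in Ex (0.37 ± 0.047, adjusted p = 0.000703) and in mTg (1.25 ± 0.073, adjusted p = 2.98e-08), again with no overlap. The ratio of *Etfa* to *Etfb* was 0.862 ± 0.038 in Ex, 0.685 ± 0.077 in mTg and 0.786 ± 0.0195 in Control (SD, n = 5 each).

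Of the auxiliary enzymes for unsaturated chains, *Decr1*, the mitochondrial 2,4-dienoyl-CoA reductase, had 56.9, 56.9, 53.9, 52.7 and 55.01 FPKM in Ex, 131, 164, 111, 106 and 121 FPKM in mTg, and 48.7, 45.4, 50.1, 46.7 and 49.1 FPKM in Control. The groups did not overlap (0.19 ± 0.043, adjusted p = 0.0157 in Ex, 1.36 ± 0.101, adjusted p = 2.16e-07 in mTg), and mTg replicate 2 was the highest library. With all 15 libraries in 1 fit the Ex call of *Decr1* was lost (adjusted p = 0.206, from 0.00174 to 0.206 over its 17 alternatives). The enoyl-CoA isomerases *Eci1*, of mitochondria, and *Eci2*, of peroxisomes and mitochondria, were measured as well. *Eci1* averaged 93.9 ± 5.91 FPKM in Ex, 165 ± 8.08 in mTg and 87.6 ± 5.29 in Control. *Eci2* averaged 42.4 ± 3.08 FPKM in Ex, 82.7 ± 7.305 in mTg and 36.5 ± 2.59 in Control. Both rose in mTg (0.91 ± 0.062, adjusted p = 1.03e-07 and 1.16 ± 0.073, adjusted p = 5.8e-08) and did not pass in Ex (0.099 ± 0.058, adjusted p = 0.302 and 0.21 ± 0.063, adjusted p = 0.0513), although *Eci2* passed without Ex replicate 4 or without Control replicate 5 (adjusted p of 0.024 and 0.0251, from 0.00268 to 0.116 over its 17 alternatives).

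The thioesterases, which release free fatty acids from acyl-CoA, rose in mTg and did not pass in Ex. *Acot2*, the mitochondrial long-chain enzyme, had 2.63, 3.55, 3.96, 3.64 and 4.44 FPKM in Ex, 8.01, 11.4, 5.84, 7.38 and 7.86 FPKM in mTg, and 3.66, 2.34, 3.54, 1.91 and 2.93 FPKM in Control. The mTg libraries were above all others (1.23 ± 0.16, adjusted p = 3.41e-05), and Ex and Control overlapped (0.27 ± 0.14, adjusted p = 0.241). *Acot2* was read from 65 to 342 reads per library and shares 20.4% of its 75-base windows with *Acot1*, which has no values here, so reads of the pair may have been split, dropped or assigned to *Acot2*. *Acot13*, a small thioesterase tied to mitochondria, averaged 124 ± 5.36 FPKM in Ex, 275 ± 26.8 in mTg and 118 ± 4.22 in Control (1.21 ± 0.071, adjusted p = 2.97e-08 in mTg, 0.079 ± 0.045, adjusted p = 0.285 in Ex).

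**Figure D3:**
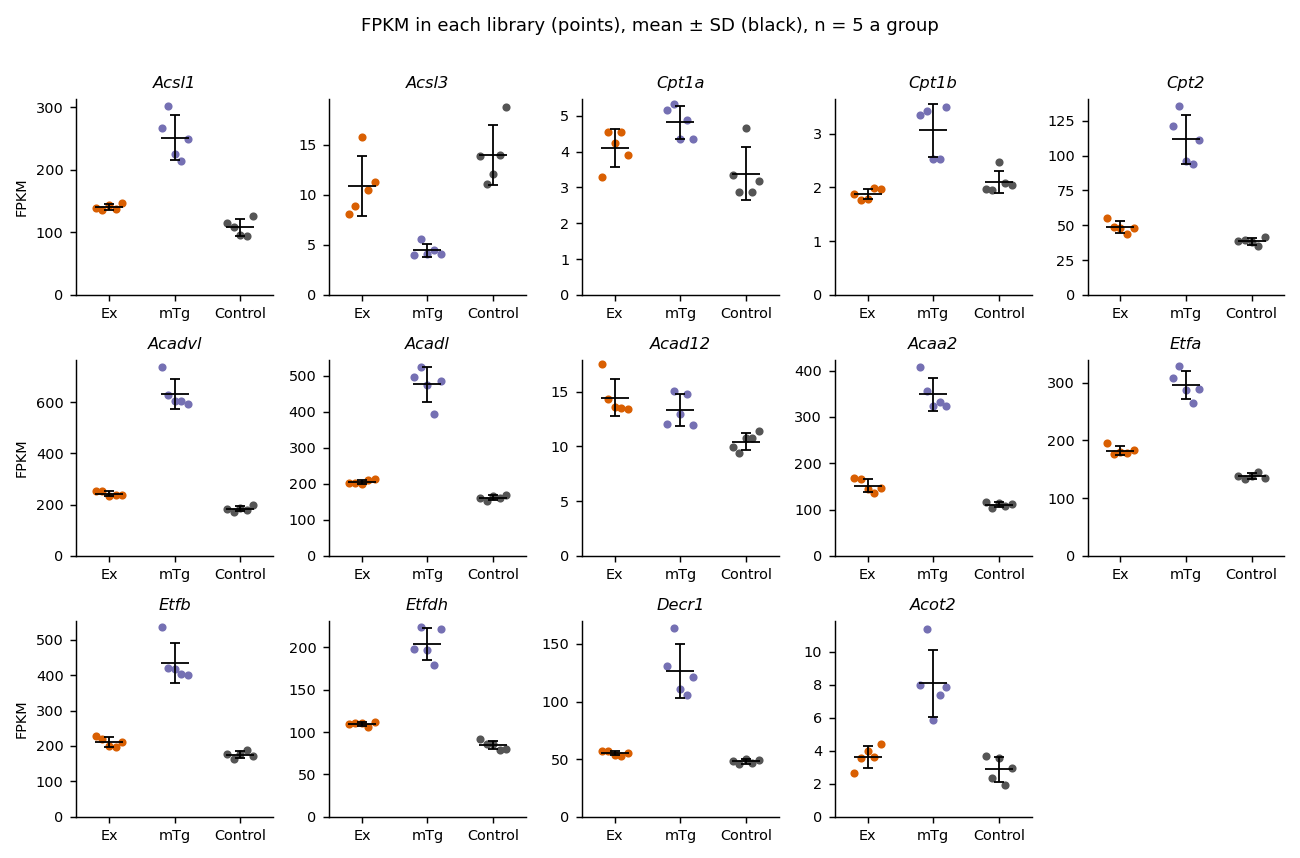
FPKM of 14 members (1 panel each, linear axes from 0) in each library of Ex, mTg and Control, with the mean and SD in black (n = 5 each). Acadvl lies between 233 and 255 FPKM in Ex, between 594 and 736 FPKM in mTg and between 169.6 and 196 FPKM in Control, while Acsl3 has its lowest mean in mTg and Acad12 its highest mean in Ex.

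The 5 peroxisomal members had smaller median fold changes than the mitochondrial ones. In Ex 1 rose and 0 fell, with a median log2 fold change of 0.16, where 13 of 25 mitochondrial members rose and 0 fell, with a median of 0.25. In mTg 3 peroxisomal members rose and 1 fell, with a median of 0.38, where 24 mitochondrial members rose and 0 fell, with a median of 0.97. In Ex against mTg 0 peroxisomal members were higher and 3 lower (median -0.23), and 0 mitochondrial members were higher and 22 lower (median -0.73). At an unadjusted p under 0.05 the counts of 0 stayed at 0, except that 1 peroxisomal member was higher in Ex than in mTg, and limma's voom fit gave 0 for each of them. Whether both sets differ in response was not tested, since their members were chosen with results known. Lists of other genes, reported below, gave the opposite order in mTg, but they do not split cleanly by compartment. There the median was 0.57 over 18 peroxisomal lipid genes and 0.48 over 25 genes of mitochondrial fatty acid handling. The second list was not limited to proteins of mitochondria. It holds *Acacb*, a member not classed as mitochondrial, and shares *Ech1* with the first. In Ex the medians of these lists were 0.14 and 0.15.

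*Abcd3*, a peroxisomal importer of long and branched acyl-CoA also called PMP70, had 30.9, 31.4, 32.2, 32.2 and 32.7 FPKM in Ex, 53.6, 55.8, 42.7, 37.8 and 46.6 FPKM in mTg, and 30.2, 26.7, 26.7, 27.2 and 30.1 FPKM in Control. It rose in mTg (0.71 ± 0.098, adjusted p = 5.98e-05) and, with every Ex library above every Control library by a small margin, in Ex (0.17 ± 0.049, adjusted p = 0.0426). The Ex call was lost with all 15 libraries in 1 fit (adjusted p = 0.244) and in 8 of 10 fits that left out 1 library (adjusted p of 0.0577 to 0.102, from 0.00413 to 0.244 over its 17 alternatives), all but those without Control replicate 1 or 5. *Abcd2*, an importer of very long and polyunsaturated acyl-CoA, had 11.2, 13.6, 13.7, 12.3 and 12.1 FPKM in Ex, 11.7, 13.03, 8.997, 10.001 and 8.92 FPKM in mTg, and 14.01, 15.98, 13.2, 12.8 and 11.005 FPKM in Control. It fell by 0.33 ± 0.11 on the log2 scale in mTg (SE, adjusted p = 0.0294) with ranges that overlapped, and gave -0.080 ± 0.087, adjusted p = 0.603 in Ex. That fall did not pass with TPM scaling (adjusted p = 0.0682) or without any 1 of mTg replicates 3, 4 or 5 or Control replicates 1, 2 or 3 (adjusted p of 0.0507 to 0.0765, from 0.00451 to 0.0765 over its 17 alternatives). The ratio of *Abcd3* to *Abcd2* was 2.55 ± 0.21 in Ex, 4.52 ± 0.54 in mTg and 2.14 ± 0.39 in Control (SD, n = 5 each), and the ranges were 2.304 to 2.76 in Ex, 3.78 to 5.22 in mTg and 1.67 to 2.74 in Control, so every mTg library was above the other groups.

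*Hsd17b4*, the peroxisomal D-bifunctional protein with hydratase and dehydrogenase activity, had 24.6, 25.2, 26.2, 25.02 and 29.2 FPKM in Ex, 52.7, 48.4, 39.1, 38.1 and 39.7 FPKM in mTg, and 25.4, 24.9, 23.96, 22.8 and 23.7 FPKM in Control. It rose in mTg without overlap (0.81 ± 0.089, adjusted p = 7.5e-06), mTg replicates 1 and 2 being highest, and did not pass in Ex (0.103 ± 0.054, adjusted p = 0.253). *Ehhadh*, the L-bifunctional protein, had 3.703, 4.15, 3.93, 3.41 and 3.84 FPKM in Ex, 3.78, 4.63, 4.002, 3.897 and 3.73 FPKM in mTg, and 4.55, 3.53, 2.46, 3.07 and 3.16 FPKM in Control. The 3 ranges overlapped and neither comparison passed (0.16 ± 0.11, adjusted p = 0.365 in Ex, 0.22 ± 0.11, adjusted p = 0.121 in mTg), although it passed in mTg without Control replicate 1 (adjusted p = 0.0166, from 0.0166 to 0.29 over its 17 alternatives). *Acaa1a*, a peroxisomal thiolase, had 18.8, 21.5, 20.6, 18.9 and 20.3 FPKM in Ex, 26.1, 22.1, 24.5, 24.6 and 20.7 FPKM in mTg, and 16.01, 15.6, 17.3, 18.7 and 22.2 FPKM in Control. It rose in mTg (0.38 ± 0.096, adjusted p = 0.00532), where Control replicate 5 lay within the mTg range, and did not pass in Ex (0.16 ± 0.085, adjusted p = 0.265), where it passed without Control replicate 5 (adjusted p = 0.0372, from 0.0324 to 0.439 over its 17 alternatives). It shares 9.504% of its 75-base windows with *Acaa1b*.

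**Figure D4:**
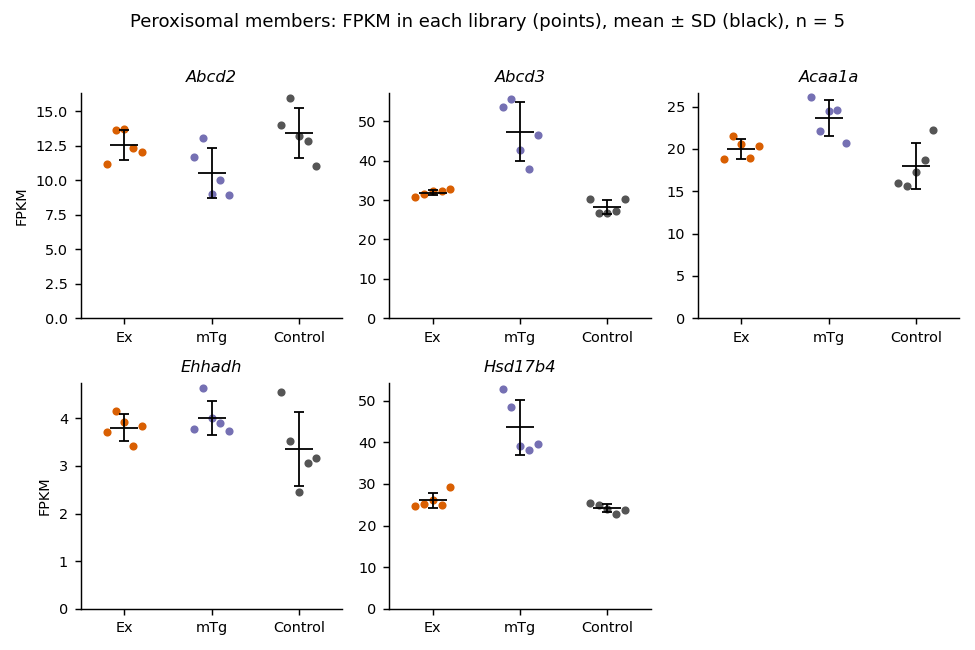
FPKM of the 5 peroxisomal members (1 panel each, linear axes from 0) in each library of Ex, mTg and Control, with the mean and SD in black (n = 5 each). Hsd17b4 and Abcd3 are highest in mTg, Abcd2 has its lowest mean there with 8.92 to 13.03 FPKM, and the Ehhadh ranges overlap in the 3 groups.

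Summed over genes, the mitochondrial members held 0.562% ± 0.025 of the summed FPKM in Ex, 1.03% ± 0.063 in mTg and 0.4403% ± 0.014 in Control, and the peroxisomal members held 0.0216% ± 0.00043 in Ex, 0.0282% ± 0.0031 in mTg and 0.0187% ± 0.00089 in Control (SD, n = 5 each). The ratio of the mitochondrial to the peroxisomal sum was 25.99 ± 1.63 in Ex, 36.6 ± 2.17 in mTg and 23.6 ± 0.952 in Control. The ratios ran from 24.8 to 28.8 in Ex, from 34.3 to 38.8 in mTg and from 22.7 to 24.8 in Control, so the mTg libraries stood apart and the Ex and Control ranges overlapped narrowly. The ratio depends on which genes are members, since the peroxisomal sum was only 87.1 ± 3.03 FPKM in Control and 129 ± 15.6 in mTg. *Phyh*, a peroxisomal gene outside the set, alone averaged 176 ± 10.6 FPKM in Control and 525 ± 43.2 in mTg. Of the 18 other peroxisomal lipid genes reported below, 14 rose and 1 fell in mTg.

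**Figure D5:**
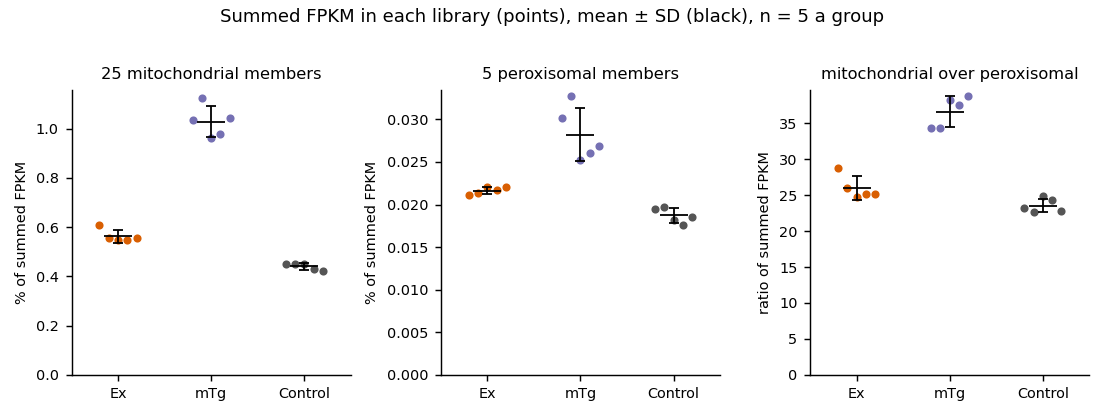
Summed FPKM of 25 mitochondrial members and of 5 peroxisomal members as a percentage of all summed FPKM, and the ratio of both sums, in each library (points) with mean and SD (black, n = 5 each). The ratio is 24.8 to 28.8 in Ex, 34.3 to 38.8 in mTg and 22.7 to 24.8 in Control. It holds for these members alone.

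Between Ex and mTg directly, *Acadvl* (-1.37 ± 0.071, adjusted p = 1.13e-08), *Acadl* (-1.202 ± 0.075, adjusted p = 4.11e-08) and *Acaa2* (-1.19 ± 0.083, adjusted p = 1.03e-07) had the most negative values, that is, lower levels in Ex. The members higher in Ex were *Acsl3* (1.102 ± 0.14, adjusted p = 2.9e-05) and *Acsl4* (0.27 ± 0.101, adjusted p = 0.0481). The *Acsl4* call was lost with median-of-ratios scaling (adjusted p = 0.0509), with no filter (adjusted p = 0.0527), and in 8 of 10 fits that left out 1 library (adjusted p of 0.0619 to 0.112, from 0.00283 to 0.112 over its 17 alternatives), all but those without Ex replicate 2 or mTg replicate 2. *Acaa1a* (-0.23 ± 0.073, adjusted p = 0.0242) was lost with TPM (adjusted p = 0.0624) and without any 1 of Ex replicates 1 or 4 or mTg replicates 1 or 4 (adjusted p of 0.0516 to 0.0584, from 0.0112 to 0.0624 over its 17 alternatives). The 6 that did not pass were *Cpt1a*, *Acad10*, *Acad12*, *Acacb*, *Ehhadh* and *Abcd2*, with values from -0.19 for *Cpt1a* to 0.25 for *Abcd2*, and *Abcd2* passed with TPM (adjusted p = 0.0237) and without Ex replicate 1, mTg replicate 1 or mTg replicate 2 (adjusted p of 0.0107 to 0.0487, from 0.0107 to 0.152 over its 17 alternatives).

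The members varied less between libraries of a group than the tested genes as a whole. Their median coefficient of variation was 6.35% in Ex, 10.3% in mTg and 6.48% in Control, against 9.43%, 12.9% and 9.63% over all tested genes. The members and all tested genes were not matched for expression level, and the part of level in this difference was not tested. The extreme values were unevenly spread over the libraries. Ex replicate 1 held the highest Ex value of 17 of 38 members and Ex replicate 4 the lowest of 19. In mTg, replicate 2 held the highest value of 22 members and replicate 4 the lowest of 15. In Control, replicate 5 held the highest value of 14 members and replicate 2 the lowest of 19.

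Other peroxisomal lipid genes, which are not members, were counted in the same fits. There, 5.39% of all tested genes rose and 5.02% fell in Ex, and 22.3% rose and 23.1% fell in mTg. The same shares apply to the lists that follow. Of 18 tested lipid enzymes and carriers of peroxisomes, 8 rose and 0 fell in Ex (9 and 0 at an unadjusted p under 0.05, 8 and 0 with voom), and 14 rose and 1 fell in mTg. *Nudt7*, a peroxisomal CoA diphosphatase, averaged 10.7 ± 0.264 FPKM in Ex, 21.3 ± 2.28 in mTg and 6.36 ± 0.757 in Control (0.67 ± 0.068, adjusted p = 0.00015 in Ex, 1.598 ± 0.090, adjusted p = 2.32e-08 in mTg). *Phyh*, which starts the α-oxidation of phytanic acid, averaged 190.5 ± 4.03 FPKM in Ex, 525 ± 43.2 in mTg and 176 ± 10.6 in Control (0.12 ± 0.047, adjusted p = 0.134 in Ex, 1.57 ± 0.071, adjusted p = 3.75e-09 in mTg). *Pecr*, a peroxisomal enoyl-CoA reductase, was the gene that fell in mTg (-0.26 ± 0.072, adjusted p = 0.00908). Of 16 peroxins, the proteins that build and divide peroxisomes, 0 rose and 0 fell in Ex (limma). At an unadjusted p under 0.05, 2 were higher and 1 lower in Ex, and voom gave 0 and 0. In mTg 5 peroxins rose and 1 fell, near the share of all genes that rose and below the share that fell. *Pex11a*, which takes part in peroxisome division, averaged 11.8 ± 1.299 FPKM in Ex, 25.7 ± 2.78 in mTg and 13.6 ± 1.47 in Control (0.87 ± 0.086, adjusted p = 3.05e-06 in mTg, -0.18 ± 0.083, adjusted p = 0.177 in Ex).

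Of 25 other genes of mitochondrial fatty acid handling, a list that shares *Acacb* with the members and *Ech1* with the peroxisomal list, 7 rose and 0 fell in Ex (8 higher and 3 lower at an unadjusted p under 0.05, 7 and 0 with voom), and 19 rose and 1 fell in mTg. The list was not limited to proteins of mitochondria. *Fabp3*, the muscle and heart fatty acid binding protein, averaged 593 ± 46.1 FPKM in Ex, 938 ± 152 in mTg and 274 ± 37.9 in Control (1.12 ± 0.090, adjusted p = 2.61e-05 in Ex, 1.77 ± 0.12, adjusted p = 9.79e-08 in mTg). *Slc25a20*, the carnitine-acylcarnitine carrier between CPT1 and CPT2, averaged 50.9 ± 4.77 FPKM in Ex, 129 ± 14.9 in mTg and 42.9 ± 0.912 in Control (0.24 ± 0.060, adjusted p = 0.0282 in Ex, 1.56 ± 0.075, adjusted p = 6.28e-09 in mTg). *Ucp3*, an uncoupling protein of muscle, ranged from 34.01 to 107 FPKM in Ex and did not pass there (0.35 ± 0.28, adjusted p = 0.456), while it rose in mTg (1.34 ± 0.14, adjusted p = 4.77e-06). *Acadsb*, the dehydrogenase of short branched chains, was the gene that fell in mTg (-0.298 ± 0.094, adjusted p = 0.0196).

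Of 22 regulators with a known part in fatty acid oxidation, 2 rose and 4 fell in Ex, and 10 rose and 9 fell in mTg, *Ppargc1a* itself among those 10. The 2 that rose in Ex encode estrogen-related receptors. *Esrrb* averaged 2.87 ± 0.536 FPKM in Ex, 10.8 ± 0.625 in mTg and 1.67 ± 0.321 in Control (0.53 ± 0.102, adjusted p = 0.00719 in Ex, 2.14 ± 0.085, adjusted p = 2.07e-09 in mTg), and *Esrrg* averaged 8.78 ± 1.14 FPKM in Ex, 6.08 ± 1.16 in mTg and 4.24 ± 0.697 in Control (0.904 ± 0.099, adjusted p = 0.000274 in Ex, 0.43 ± 0.12, adjusted p = 0.0102 in mTg). *Esrra*, the third receptor of that family, averaged 51.6 ± 1.799 FPKM in Ex, 111 ± 8.29 in mTg and 45.2 ± 4.43 in Control (0.19 ± 0.063, adjusted p = 0.0708 in Ex, 1.29 ± 0.077, adjusted p = 3.55e-08 in mTg), and *Ppara*, the receptor known to drive fatty acid oxidation genes in liver, averaged 5.75 ± 1.06 FPKM in Ex, 7.81 ± 1.12 in mTg and 5.12 ± 1.64 in Control (0.17 ± 0.17, adjusted p = 0.557 in Ex, 0.56 ± 0.16, adjusted p = 0.0114 in mTg). The 4 that fell in Ex were *Rxra* (-0.31 ± 0.046, adjusted p = 0.00191), *Rxrg* (-0.38 ± 0.054, adjusted p = 0.00129), *Mef2a* (-0.23 ± 0.051, adjusted p = 0.0141) and *Prkag3* (-0.47 ± 0.11, adjusted p = 0.0182). These 4 also fell in mTg, *Rxra* by -0.75 ± 0.061 (adjusted p = 4.58e-07) and *Rxrg* by -0.76 ± 0.071 (adjusted p = 1.74e-06). The mTg values were -0.27 ± 0.101 for *Mef2a* (adjusted p = 0.0449) and -2.80 ± 0.14 for *Prkag3* (adjusted p = 6.55e-09).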

How the data were processed

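RNA was isolated from skeletal muscle, and polyA libraries were made with a strand-marking kit. The deposited FPKM of 12529 genes in 15 libraries were made by the authors, whose processing notes name STAR, mm10 and DESeq2 1.1.0. The annotation, the counting tool and its treatment of strand and of reads that match several genes are not stated in what was read here. Tables of the authors' own comparisons, which hold fold changes, p-values and mean normalized counts of genes listed as changed, were not used, and every value column of the FPKM table was mapped to a sample by its name, leaving 0 unmapped.

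The test was limma 3.58.1 (R 4.3.3), a linear model with a mean-variance trend, run on both sides with log2(FPKM + 1) as the response. Fold changes of weakly expressed genes come out too small on that scale. Genes averaging under 0.5 FPKM across the 15 libraries were left out, which kept 11674, and each comparison used its own 10 libraries. P-values were adjusted by the Benjamini-Hochberg method over all tested genes, with a threshold of 0.05. FPKM were whole multiples of 1 read (within 0.01 reads) for 100% of the 12529 genes, so reads per library could be recovered, from 11475817 to 16917490. limma's voom fit on them called 623 genes higher and 574 lower in Ex against Control, 2696 and 2606 in mTg against Control, and 2348 and 2472 in Ex against mTg. Replicates of a group differed by more than counting noise, so each library was counted once.

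The alternatives were a pseudocount of 0.1 FPKM, no filter, TPM and median-of-ratios scaling, voom, all 15 libraries in 1 fit, the replicate number as a block, and leaving out each library. The members and lists were chosen with earlier results of these data known. Values in every library are given for called members with 1 of the 6 largest fold changes in Ex or mTg against Control, members called in opposite directions (there were none), peroxisomal members, *Cpt1a*, *Cpt1b* and *Acot2*, and the 3 most abundant members. The rule also names *Acot1*, which was not analysed here. Shared exons and 75-base windows come from GENCODE vM21, and promoter windows from RefSeq (GRCm38.p6). Marker lists of fibroblasts, satellite cells, smooth muscle, Schwann cells and erythroid cells were also counted and are given under the other observations. Some genes of the lists of other genes are counted but not reported here by name.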

Additional observations from a re-analysis of the deposited data

Results flagged for a closer look

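In each group of 5 libraries, a member's highest or lowest library was set against the others, and 9 of 114 such groups held a library that stood apart by Dixon's test, where chance gives about 5%. In mTg, replicate 1 had 735.8 FPKM of *Acadvl* (593.8 to 627 in the others) and 534.8 FPKM of *Etfb* (400.9 to 419.3), replicate 2 had 258.7 FPKM of *Hadh* (195.7 to 210.1) and replicate 5 had 241.1 FPKM of *Crat* (216.8 to 223.1). In Ex, replicate 1 had 17.51 FPKM of *Acad12* (13.44 to 14.34 in the others), and replicate 4 was low in *Eci1* with 83.51 FPKM (94.82 to 98.13). In Control, replicate 3 was high in both CPT1 genes, with 4.656 FPKM of *Cpt1a* (2.866 to 3.359 in the others) and 2.465 FPKM of *Cpt1b* (1.951 to 2.074), and replicate 2 had 8.849 FPKM of *Acsl4* (7.313 to 7.694).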

How the results depend on the processing

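Of 1938 member values under alternatives, 57 lost their call, 21 gained one and 1860 kept their side of the threshold. Of the values called in the fit above or in the alternative, 0 changed sign. Values called in neither were not checked for sign. Some of them changed it, such as *Acad9* in Ex against Control, with -0.047 above and 0.042 with TPM. Members rose in Ex in 13 to 22 cases over the settings that kept all libraries and in 13 to 17 when 1 was left out, and in mTg in 32 to 34 cases under both. TPM scaling gave 2 peroxisomal members higher in Ex, 1225 genes higher and 208 lower in Ex, a member median of 0.269 in Ex, 0 peroxisomal members lower in mTg, and 1 peroxisomal member higher in Ex against mTg; it moved the median of all genes by under 0.1. With all 15 libraries in 1 fit, 0 peroxisomal members rose in Ex. In Ex against mTg 1 member was higher with no filter and with median-of-ratios scaling. Libraries with the same replicate number did not deviate together (correlations from -0.216 to 0.189), and the number marks no pair. With the replicate block, 0 peroxisomal members rose in Ex and 1 member was higher in Ex against mTg; the calls lost with it were *Abcd3* in Ex (adjusted p = 0.0801), *Acacb* in mTg (0.0631), and *Acaa1a* (0.0595) and *Acsl4* (0.0948) in Ex against mTg. Leaving out 1 library gave 0 to 2 peroxisomal members higher in Ex, 418 to 699 genes higher in Ex (fewest without Control replicate 4) and 326 to 777 lower (under 390 without Ex replicates 1, 3 or 4 or Control replicates 3 or 4), 0 to 1 peroxisomal members lower in mTg, and in Ex against mTg 1 to 3 members and 0 to 1 peroxisomal members higher. The causes of these shifts were not tested. Depth limits *Acot2*, *Cpt1b* and *Acad10* most, with 65, 73 and 77 reads in their lowest libraries.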

Other observations

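Markers of further cell types were counted in the same fits. Of all tested genes, 5.39% rose and 5.02% fell in Ex, and 22.3% rose and 23.1% fell in mTg. Of 7 fibroblast markers, 0 rose and 0 fell in Ex, and 2 rose and 2 fell in mTg, with sums of 384 to 575 FPKM in Ex, 381 to 569.7 FPKM in mTg and 445 to 569.6 FPKM in Control. Of 5 markers of smooth muscle and pericytes, 1 rose and 2 fell in Ex, and 3 rose in mTg, with sums of 119.7 to 136 FPKM in Ex, 139 to 178 FPKM in mTg and 124 to 148 FPKM in Control. Both tested satellite cell markers fell in mTg, where 3 markers summed to 9.53 to 10.3 FPKM in Ex, 3.90 to 5.52 FPKM in mTg and 9.22 to 11.3 FPKM in Control. Of 5 Schwann cell markers, 4 fell in mTg, with sums of 26.3 to 33.96 FPKM in Ex, 17.4 to 34.02 FPKM in mTg and 32.8 to 42.0 FPKM in Control. The 4 globin genes of the erythroid list had no values, and the 1 marker with a value rose in mTg.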
